A study of Sus scrofa with 36 samples.

Results

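The border zone is the strip of surviving left ventricle beside an infarct. Here it was compared with the left ventricle of sham-operated pigs at the earliest time and age of the series, 1 day after surgery at 2 days of age. The comparison holds the 3 libraries labelled Young Early BZ and the 3 labelled Young Early Sham, 6 of the 36 libraries of the series, and all 14537 genes of 25880 that passed a filter on low counts. Its members were taken by those labels alone.

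All pigs were Yorkshire-landrace swine, and the 6 of this comparison were 3 days old at harvest. Infarcts were made under anaesthesia by permanent ligation of branches of the left anterior descending and left circumflex coronary arteries, and the BZ libraries came from the border zone of 3 such pigs. The sham libraries came from the anterior left ventricular wall of 3 other pigs, so BZ and sham differ in surgery and may also differ in the site sampled. How the border zone was outlined is not given in the sources used here. Ketoprofen, an analgesic, and enrofloxacin, an antibiotic, were given after surgery to infarcted and sham pigs alike. The infarct zone (IZ) of the same 3 infarcted pigs, and the BZ and sham libraries of pigs operated at 14 days of age and sampled 1 day later (Old Early), are used below only beside genes of this comparison.

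In the first day after a coronary ligation, dying heart muscle cells release signals that start the expression of chemokines, and these draw neutrophils and then monocytes into the tissue. Surviving muscle cells near the infarct are stretched and short of oxygen, and fibroblasts begin to make the provisional matrix on which repair proceeds. Newborn pigs, like newborn mice, keep for a few days a capacity to regrow heart muscle that later is lost, which is the question the series title raises.

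The 6 libraries held 22075299 to 39789874 counts and were prepared in the same batch. BZ replicate 2 stood apart from the other 5. It had the most counts and the fewest genes with a count, 15064 against 15536 to 16239. Its log2 CPM (counts per 1000000 counts of the scaled library) correlated with those of the other 5 libraries at 0.898 to 0.933, while every pair among those 5 reached at least 0.956. When limma gave each of the 36 libraries a quality weight, BZ replicate 2 received 0.0489 and the others 0.329 to 4.05. Mitochondrially encoded genes took 10.1% of its counts, 26.3% and 29.9% in the other BZ libraries and 27.1% to 44.1% in the shams. RNA integrity numbers were 7.4, 7.6 and 7.4 in BZ and 6.8, 6.9 and 6.4 in sham, so a difference in RNA integrity and the difference in group cannot be told apart here. The Y-linked gene EIF1AY had 429, 0 and 572 counts in the BZ libraries and 0, 0 and 163 in the shams, and its part in the results was not tested.

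BZ replicate 2 also differed from the rest by gene length. When the genes were split into 4 equal groups by exonic length, the shortest lay at a median of 0.24 above the sham mean (log2 scale) in BZ replicate 2 and the longest at -0.18. In BZ replicates 1 and 3 the order was the opposite, from -0.12 in the shortest group of both to 0.11 and 0.13 in the longest. The sham libraries stayed within 0.06 of their mean in every group. Single genes could differ by far more than these medians: the calcium release channel gene RYR2 had 391 and 265 CPM in BZ replicates 1 and 3 but 31.7 in replicate 2, and the perlecan gene HSPG2 519 and 399 but 32.2. These 2 were picked after their values were seen, and whether their length bears on their levels was not tested. Values are given per library below, and the main counts are given with and without BZ replicate 2.

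**Figure D1:**
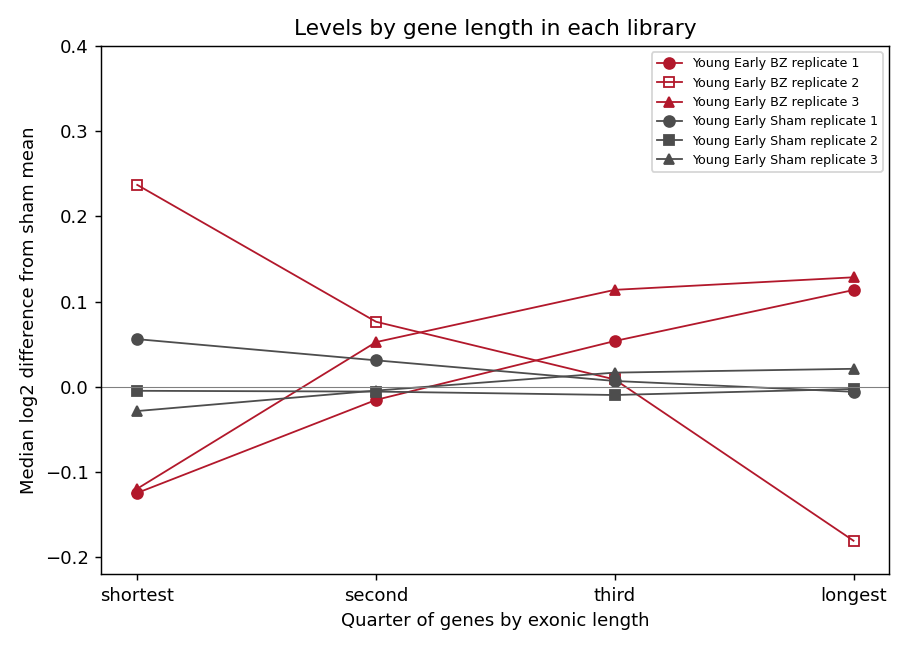
Median difference of log2 CPM from the mean of the 3 sham libraries (y axis) for genes in 4 equal groups by exonic length, from shortest to longest (x axis), with 1 line per library. BZ replicate 2, in open squares, falls from 0.24 to -0.18, and BZ replicates 1 and 3 rise from -0.12 to 0.11 and 0.13.

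Heart muscle genes, the check of the labelled tissue, were abundant in all 6 libraries. The ventricular light chain gene MYL2 had 12593, 51165 and 11278 CPM in BZ and 20412, 21778 and 16776 CPM in sham, and the cardiac heavy chain gene MYH6 had at least 23206 CPM in every library. Across the whole comparison, 130 genes were called at a Benjamini-Hochberg adjusted p under 0.05 in edgeR's quasi-likelihood test, 0.894% of those tested. Of these, 94 were higher in BZ (0.647%) and 36 were lower (0.248%). With 0.894% of all genes called, a list of the sizes used below that held no call lay close to that share. In 120 of the 130 the 3 BZ libraries did not overlap the 3 shams, a separation seen in 14.3% of all genes tested. The called genes that rose include chemokine, matrix, calcium-binding and secretory genes. Where not every sham was at 0, their log2 fold changes reached 4.79 (CRTAC1). CRTAC1 had 1.65, 0.174 and 6.67 CPM in BZ and 0.228, 0 and 0.0688 in sham, so its groups overlapped. The falls were smaller, down to -2.31 for ENSSSCG00000018225, from 9, 3 and 4 counts in BZ and 19, 20 and 17 in sham. For 3 rises, KRT7, ENSSSCG00000026210 and ENSSSCG00000022035, all 3 shams were at 0, and no fold is given.

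The calls depended on single libraries. BZ replicate 2 was the highest of the BZ libraries in 64 of the 94 rises and the lowest in 24 of the 36 falls. The same counts over all genes were not worked out, so these do not set the called genes apart. Without BZ replicate 2, 162 genes were called (1.1%), 128 higher (0.868%) and 34 lower (0.231%). Of the 130 original calls all kept their sign without it, and 50 kept their call. With library quality weights, which left all 6 libraries in but counted BZ replicate 2 for little, limma-voom called 2153 genes (14.8%), 1027 higher (7.06%) and 1126 lower (7.75%), and 117 of the 130 were among them. With the RNA integrity number as a covariate, 22 of the 130 kept their call. When only the 6 libraries were fitted, edgeR called 0 genes, with 729 at an unadjusted p under 0.05, while the DESeq2 test on all 36 libraries called 557. Only 8 calls held when each of the 6 libraries was left out in turn, and these were HAMP, S100A6, CCL2, DZANK1, OSTC, NSG1 and 2 genes with no symbol, ENSSSCG00000029449 and ENSSSCG00000013380.

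**Figure D2:**
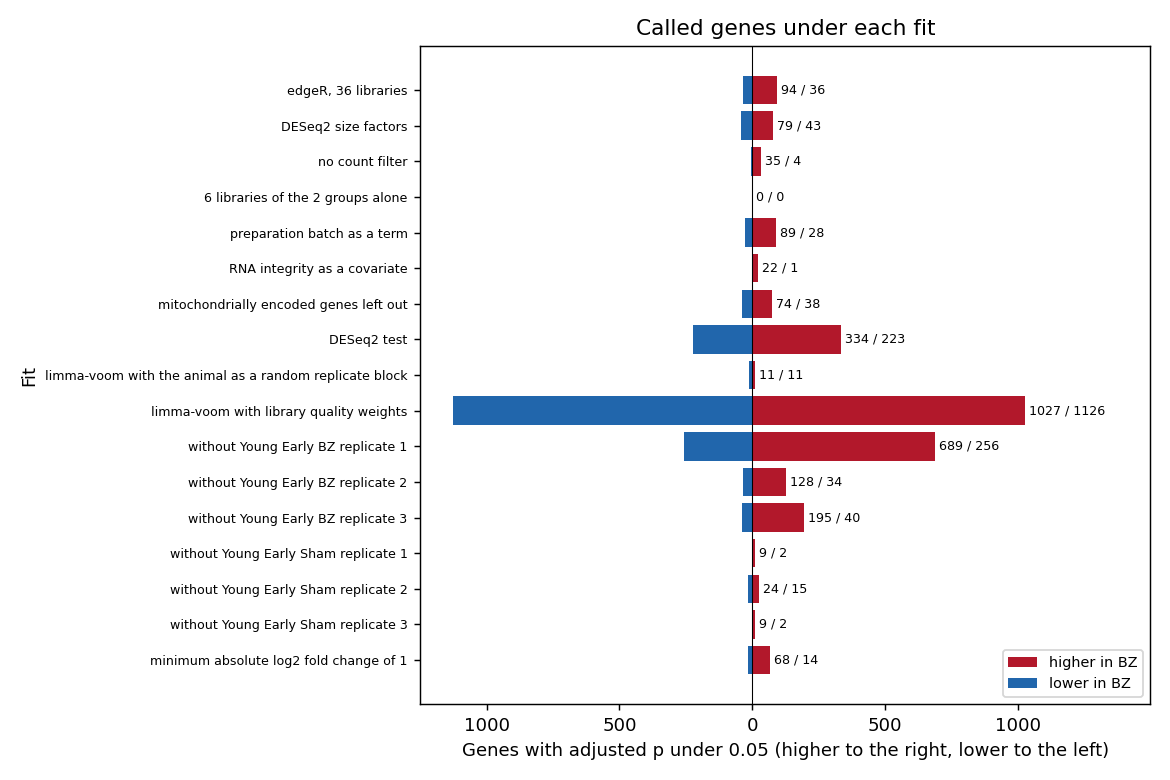
Number of genes with an adjusted p under 0.05 (x axis) under each way of fitting the comparison (y axis), higher in BZ to the right in red and lower in BZ to the left in blue, with both counts printed. The counts run from 0 in the fit of the 6 libraries alone to 1027 higher and 1126 lower with quality weights.

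**Figure D3:**
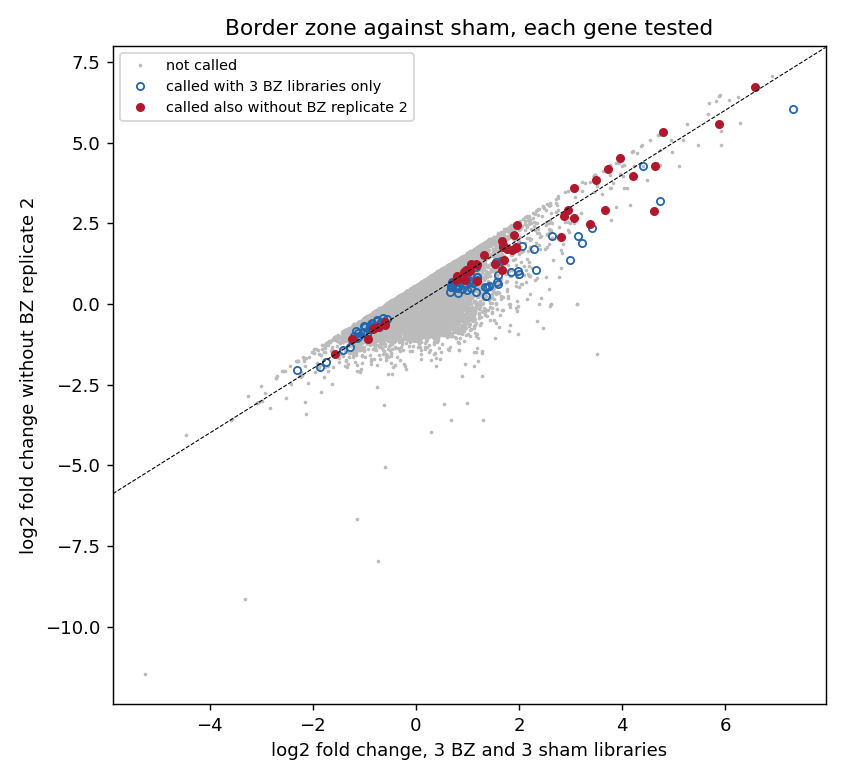
Log2 fold change of each gene tested with all 3 BZ libraries (x axis) against that without BZ replicate 2 (y axis), with the line of equality dashed. The genes called in both fits (filled) and those called only with all 3 libraries (open) all lie on the same side of 0 in both fits.

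Among secreted inflammatory signals, CCL2 showed the clearest rise. CCL2, the chemokine that recruits monocytes (chromosome 12, 40798116 to 40800026, genome build not given in the sources used here), had 28.3, 112 and 45.5 CPM in BZ and 7.59, 9.82 and 8.87 CPM in sham. All 3 BZ libraries lay above all 3 shams. CCL2 rose by 2.82 ± 0.46 on the log2 scale (SE, n = 3 per group, adjusted p = 0.00351), about 7.06-fold, and by 2.08 without BZ replicate 2 (adjusted p = 0.0185). PTX3, a soluble pattern recognition protein of acute inflammation, had 5.66, 13.4 and 13.8 CPM in BZ and 1.60, 1.16 and 1.72 CPM in sham. It rose by 2.88 ± 0.61 (adjusted p = 0.0250), and was called in 3 of the 6 fits that left out 1 library each. CXCL14, a chemokine of epithelial and stromal cells, had 1.73, 15.1 and 2.64 CPM in BZ and 0.285, 0.105 and 0.344 CPM in sham, and rose by 4.74 ± 1.17 (adjusted p = 0.0466). Its call was lost without BZ replicate 2, at an adjusted p of 0.124.

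Of 24 acute inflammation genes tested, CCL2 and PTX3 rose and none fell. The list's median log2 fold change was 0.85 against 0.13 over all genes tested, and 21 of the 24 were positive. Without BZ replicate 2 there were 3 calls, and the median was 1.12 against 0.02 over all genes. The third call was OSMR, the oncostatin M receptor, which read 6.72 and 8.80 CPM in BZ replicates 1 and 3, 1.35 in replicate 2 and 1.94 to 3.58 in the shams. IL6 and CXCL8, the classic early cytokine and neutrophil chemokine, were close to absent, with at most 0.110 CPM for IL6 and 0.0733 for CXCL8 in any of the 6 libraries.

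Among leukocyte markers, S100A12 and SPP1 rose. S100A12, a calcium-binding protein of granulocytes, had 3.17, 5.87 and 3.04 CPM in BZ and 0.285, 0.0525 and 0.138 CPM in sham. It rose by 4.63 ± 0.94 (adjusted p = 0.0187), and by 4.26 without BZ replicate 2 (adjusted p = 0.0431). S100A12 was called in 3 of the 6 fits that left out 1 library each. CSF3R, the receptor for granulocyte colony-stimulating factor, had 1.01, 1.65 and 1.17 CPM in BZ and 0.0571, 0 and 0.275 in sham, and did not pass the test (adjusted p = 0.0613). Of 13 neutrophil markers tested S100A12 alone was called, 6 had every BZ library above every sham, as had 8.01% of all genes tested, and the median log2 fold change was 1.31. Their summed level was 30.2, 159 and 43.8 CPM in BZ and 32.3 to 34.3 CPM in sham, with 125 CPM of the BZ replicate 2 value from LCN2, and MPO and MMP8 were listed at 0 in all 6 libraries. Of 22 macrophage and monocyte markers all were positive, with a median of 0.91, and SPP1 was called. Without BZ replicate 2 the median was 0.60, and the list's mean log2 CPM minus the sham mean was 0.65, 1.26 and 0.95 in BZ replicates 1, 2 and 3. In tissue RNA, more cells of a type and more RNA per cell cannot be told apart.

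SPP1 encodes osteopontin, a matrix protein that macrophages make in healing infarcts. It had 63.1, 12.6 and 72.9 CPM in BZ and 3.82, 3.62 and 3.85 CPM in sham, so that even its lowest BZ value was more than the highest sham value. SPP1 rose by 3.72 ± 0.91 (adjusted p = 0.0462), and by 4.17 without BZ replicate 2 (adjusted p = 0.0351). The complement genes C1QA, C1QB and C1QC, which resident macrophages express, had log2 fold changes of 0.14, 0.18 and 0.26 and overlapped between the groups. The macrophage scavenger receptor MSR1 had 2.49, 1.78 and 4.88 CPM in BZ and 0.619 to 0.735 in sham (adjusted p = 0.0767). Of 15 lymphocyte and 24 interferon response genes tested, none was called, as against 0.894% of all genes.

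**Figure D4:**
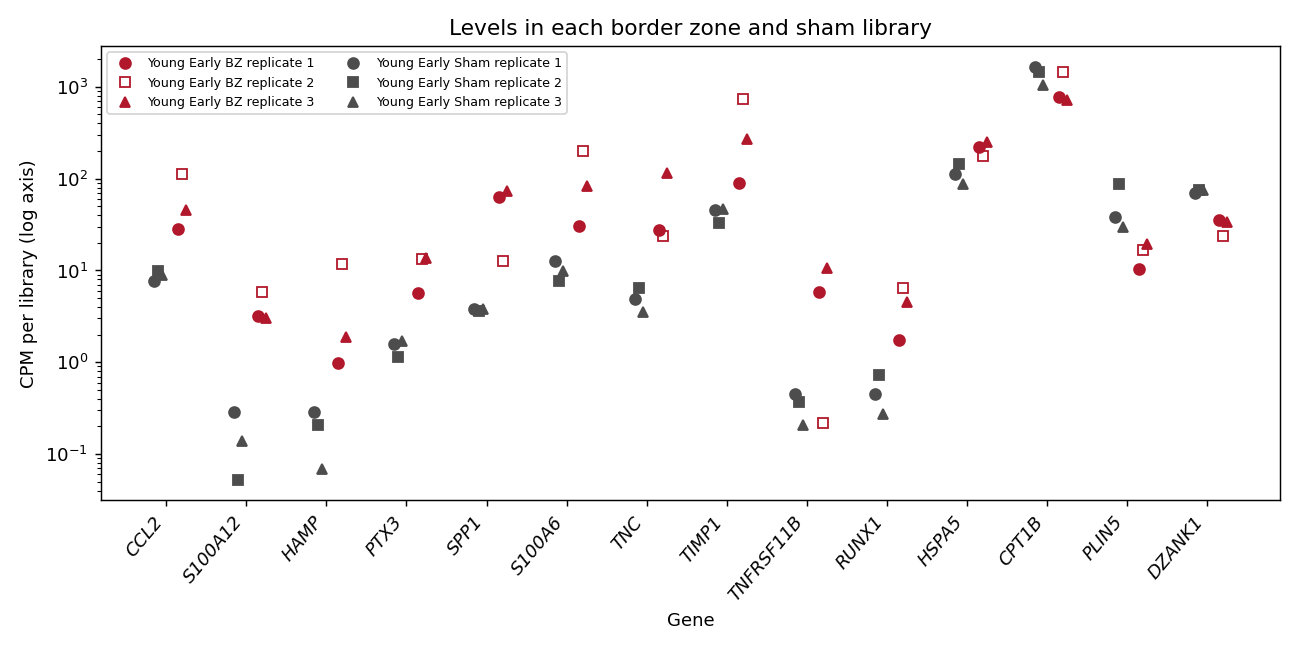
Level of 14 genes (x axis) in CPM on a log axis in each of the 3 BZ libraries (red, BZ replicate 2 open) and the 3 sham libraries (grey). CCL2, S100A12, HAMP, PTX3, SPP1, S100A6, TNC, TIMP1 and RUNX1 have every BZ library above every sham, while BZ replicate 2 lies with the shams for TNFRSF11B.

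Of the S100 and annexin genes, which bind calcium and in part membranes, S100A6 was called. S100A6 (chromosome 4, 96098189 to 96100128) had 30.7, 202 and 82.2 CPM in BZ and 12.7, 7.72 and 9.90 CPM in sham. It rose by 3.38 ± 0.53 (adjusted p = 0.00315), and by 2.48 without BZ replicate 2 (adjusted p = 0.0138). All 13 members tested had a positive log2 fold change, with a median of 0.57 that was 0.19 without BZ replicate 2. ANXA2 had 363, 969 and 674 CPM in BZ and 339 to 404 CPM in sham, and ANXA5 had 257, 325 and 520 against 148 to 226 CPM, and neither passed the test.

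HAMP encodes hepcidin, the peptide hormone that blocks iron export from cells, and is best known from liver. HAMP (chromosome 6, 44784160 to 44787305) had 0.971, 11.7 and 1.91 CPM in BZ and 0.285, 0.210 and 0.0688 CPM in sham, from 23, 269 and 52 counts against 5, 4 and 1. It rose by 4.61 ± 0.71 (adjusted p = 0.00315), and by 2.87 without BZ replicate 2 (adjusted p = 0.0132). MT1X, a metallothionein that binds zinc and copper, had 3.34, 27.1 and 6.31 CPM in BZ and 0.788 to 1.93 CPM in sham, and rose by 3.22 ± 0.66 (adjusted p = 0.0205). Both genes were highest in BZ replicate 2, and the call of MT1X was lost without that library (adjusted p = 0.0743).

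Several genes of transcription control and signalling rose from low levels. RUNX1, a transcription factor of blood cell formation that is also known to increase in injured heart muscle, had 1.73, 6.39 and 4.58 CPM in BZ and 0.457, 0.735 and 0.275 CPM in sham. It rose by 3.07 ± 0.56 (adjusted p = 0.00943), and by 2.65 without BZ replicate 2 (adjusted p = 0.0317). VDR, the vitamin D receptor, rose by 3.41 ± 0.74 (adjusted p = 0.0280), from 0.228 to 0.481 CPM in sham to 0.929, 7.48 and 2.49 in BZ. PANX1, a channel that releases ATP, rose by 2.06 ± 0.49, SLC17A9, which loads ATP into vesicles, by 2.29 ± 0.46, and NPM3, a nucleolar chaperone, by 1.98 ± 0.47. The calls of VDR, PANX1, SLC17A9 and NPM3 were each lost without BZ replicate 2.

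Immediate early genes, which encode transcription factors made within minutes to hours of a stimulus, gave no call among 26 tested, and 24 of the 26 were positive with a median of 0.40, which was 0.71 without BZ replicate 2. BZ replicate 2 lay with the shams in this list, at a mean of -0.02 against 0.65 and 0.82 in BZ replicates 1 and 3. Without it JUNB and KLF6 were called. With quality weights 9 of the 26 were called higher and 0 lower, against 7.06% and 7.75% of all genes. JUNB had 13.1 and 28.2 CPM in BZ replicates 1 and 3, 4.57 in replicate 2 and 4.73 to 8.84 in the shams. KLF6 had 5.07 and 4.47 CPM in BZ replicates 1 and 3, 0.130 in replicate 2 and 0.788 to 1.14 in the shams. FOS had 3.51, 1.17 and 3.08 CPM in BZ and 0.856 to 1.21 CPM in sham (adjusted p = 0.131).

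Among 28 growth factor and cytokine receptor genes, TNFRSF11B was called. TNFRSF11B encodes osteoprotegerin, a secreted decoy receptor for RANKL. It had 5.79, 0.217 and 10.5 CPM in BZ and 0.457, 0.368 and 0.206 CPM in sham, so that BZ replicate 2 lay among the shams. Its log2 fold change was 3.96 ± 0.86 (adjusted p = 0.0280), and 4.52 without BZ replicate 2 (adjusted p = 0.00180). TNFRSF11B was called in 2 of the 6 fits that left out 1 library each. With RNA integrity as a covariate it was not called (edgeR adjusted p = 0.106). NRG1, a growth factor that acts on heart muscle cells through ERBB receptors, stayed at or under 0.257 CPM in every library. TGFB3 had 13.1, 17.7 and 20.7 CPM in BZ and 7.99 to 9.42 CPM in sham (adjusted p = 0.105).

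The chaperones of heat shock and of the endoplasmic reticulum, which fold new and damaged proteins, gave 2 rises among 24 tested. All 24 members tested were positive, with a median of 0.67, and 13 had every BZ library above every sham, a pattern seen in 8.01% of all genes. HSP90AA1, a chaperone gene of every cell, was listed at 0 in all 6 libraries, so a listing at 0 in this table need not mean absence. PDIA4 and CRELD2 were called. PDIA4, a protein disulfide isomerase, had 93.4, 349 and 112 CPM in BZ and 78.3, 63.3 and 66.7 CPM in sham, and rose by 1.41 ± 0.30 (adjusted p = 0.0268). CRELD2 had 11.8, 58.3 and 18.0 CPM in BZ and 8.66 to 10.8 CPM in sham, and rose by 1.59 ± 0.40 (adjusted p = 0.0481). Both were highest in BZ replicate 2 and neither was called without it, at log2 fold changes of 0.57 and 0.61.

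Without BZ replicate 2 the called chaperones were HSPA5, HSPH1 and DNAJB9, and the list's median was 0.53. HSPA5, the main chaperone of the endoplasmic reticulum, had 223, 175 and 251 CPM in BZ and 112, 143 and 86.5 CPM in sham. Its groups did not overlap, and its log2 fold change was 0.93 ± 0.24 with all libraries (adjusted p = 0.0578) and 1.06 without BZ replicate 2 (adjusted p = 0.0435). XBP1, a transcription factor of the unfolded protein response, had 54.8, 52.9 and 56.4 CPM in BZ and 30.5 to 34.5 CPM in sham (adjusted p = 0.0524), with little spread in either group.

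Few hypoxia or glycolysis genes passed the test. The median log2 fold change of 24 hypoxia genes was 0.20 and that over all genes 0.13. VEGFA, the main angiogenic target of low oxygen, had 145, 25.7 and 142 CPM in BZ and 121 to 185 CPM in sham (adjusted p = 0.527). None of 21 glycolysis genes was called, as against 0.894% of all genes. Their median was 0.02, and -0.28 without BZ replicate 2, against 0.02 over all genes in that fit. HK2, the inducible hexokinase, had 7.65, 4.87 and 24.9 CPM in BZ and 1.83 to 2.68 CPM in sham, with a log2 fold change of 2.52 ± 0.69 (adjusted p = 0.0637). It was called without BZ replicate 2, as were LDHA, which makes lactate, and P4HA1, which hydroxylates collagen. LDHA had 112 and 330 CPM in BZ replicates 1 and 3, 29.8 in replicate 2 and 49.3 to 88.0 in the shams.

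Matrix genes gave 3 rises among 37 tested and no fall, with a median of 0.75. TNC, tenascin-C, an adhesion-modulating protein laid down at the edge of infarcts, had 27.7, 23.8 and 115 CPM in BZ and 4.85, 6.41 and 3.51 CPM in sham. TNC rose by 3.49 ± 0.65 (adjusted p = 0.0103), and by 3.84 without BZ replicate 2 (adjusted p = 0.00610). TNC was called in 4 of the 6 fits that left out 1 library each. With RNA integrity as a covariate it was not called (edgeR adjusted p = 0.0570). COL8A1, a short-chain collagen, had 19.6, 19.2 and 32.7 CPM in BZ and 5.91 to 8.93 CPM in sham, and rose by 1.69 ± 0.41 (adjusted p = 0.0418). COL8A1 was called in 2 of the 6 fits that left out 1 library each. With RNA integrity as a covariate it was not called (edgeR adjusted p = 0.185). SPP1, above, was the other. Of the 37, 12 had every BZ library above every sham, as had 8.01% of all genes, and none had every BZ library below, as had 6.33%.

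The fibrillar collagens and fibronectin did not pass the test. COL1A1 had 423, 754 and 704 CPM in BZ and 324 to 379 CPM in sham, a log2 fold change of 0.87 ± 0.36 (adjusted p = 0.206). FN1, fibronectin, had 56.8 and 123 CPM in BZ replicates 1 and 3, 3.83 in replicate 2 and 13.9 to 19.9 in the shams. POSTN, periostin, a matrix protein of activated fibroblasts, had 31.5, 31.2 and 115 CPM in BZ and 22.6, 11.5 and 6.40 CPM in sham (adjusted p = 0.0649). Without BZ replicate 2, POSTN and CTHRC1 joined TNC, COL8A1 and SPP1, for 5 calls.

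Among protease genes and their inhibitors, TIMP1 rose, and the median of the 18 tested was 0.74. TIMP1, the inhibitor of matrix metalloproteinases, had 89.5, 743 and 270 CPM in BZ and 45.0, 32.5 and 47.0 CPM in sham, and rose by 3.15 ± 0.62 (adjusted p = 0.0166). Its adjusted p was 0.0548 without BZ replicate 2, at a log2 fold change of 2.12. BZ replicate 2 was thus the highest library for TIMP1.

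CCDC80, a secreted matrix-binding protein, was the call among 21 fibroblast markers, which had a median of 0.57. It had 27.8, 78.5 and 61.8 CPM in BZ and 15.0 to 22.2 CPM in sham, and rose by 1.64 ± 0.38 (adjusted p = 0.0365). Of the 21 markers 15 were positive. Every BZ library lay above every sham for 6 of them, as for 8.01% of all genes, and below for 2, as for 6.33%. Among the negative members, TCF21 and PDGFRB had log2 fold changes of -0.57 and -0.62, neither called. TCF21 had 15.6, 9.79 and 18.8 CPM in BZ and 18.9 to 26.4 CPM in sham, so that its groups touched without overlap, and PDGFRB overlapped.

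Genes of contraction did not pass the test. Of 23 sarcomere and calcium handling genes none was called, as against 0.894% of all genes. Their median was -0.06, and -0.49 without BZ replicate 2. MYH6 had 31358, 37152 and 23206 CPM in BZ and 40836, 39499 and 34973 CPM in sham (adjusted p = 0.472). ATP2A2, the calcium pump of the sarcoplasmic reticulum, had 1768, 289 and 1899 CPM in BZ and 702 to 1196 CPM in sham. Its replicates 1 and 3 lay above the shams and replicate 2 below them.

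ANKRD2 was the call among 17 cardiac stress genes. ANKRD2, a stretch-responsive ankyrin repeat protein, had 13.1, 62.6 and 16.6 CPM in BZ and 5.48, 13.8 and 3.78 CPM in sham, overlapping by 1 sham library. Its log2 fold change was 1.99 ± 0.49 (adjusted p = 0.0462), and 0.94 without BZ replicate 2 (adjusted p = 0.175). The related ANKRD1 had 2244, 4308 and 2620 CPM in BZ and 1613, 1438 and 538 CPM in sham, without overlap, at a log2 fold change of 1.35 ± 0.35 (adjusted p = 0.0529). NPPB, the brain natriuretic peptide gene, spread widely in both groups, at 959, 1288 and 332 CPM in BZ and 546, 189 and 26.6 CPM in sham. Of 23 cardiac channel and transcription factor genes none was called, as against 0.894% of all genes.

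Fatty acid oxidation gave 1 fall among 28 genes. PLIN5, which coats lipid droplets and ties them to mitochondria, had 10.5, 16.8 and 19.5 CPM in BZ and 38.1, 88.0 and 30.1 CPM in sham. It fell by 1.74 on the log2 scale (SE 0.44, adjusted p = 0.0499), and was called in 1 of the 6 fits that left out 1 library each. CPT1B, which brings long-chain fatty acids into mitochondria, had 771, 1465 and 723 CPM in BZ and 1659, 1454 and 1048 CPM in sham (adjusted p = 0.370). Its replicates 1 and 3 lay below the shams, and its replicate 2 within their range.

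The nuclear genes of oxidative phosphorylation split the BZ libraries. None of 38 was called, with a median of 0.04. The list's mean log2 CPM minus the sham mean was -0.47 and -0.45 in BZ replicates 1 and 3 and 0.68 in replicate 2. Without replicate 2 the median was -0.51, against 0.02 over all genes, and none was called. COX4I1, a subunit of cytochrome c oxidase, had 1750 and 1425 CPM in BZ replicates 1 and 3, 11585 in replicate 2 and 2942 to 3281 in the shams. Of the 13 mitochondrially encoded genes, none was called and 12 had a negative log2 fold change, with a median of -0.96 that was -0.63 without BZ replicate 2. Their mean log2 CPM minus the sham mean was -1.97 in BZ replicate 2, -0.68 and -0.43 in BZ replicates 1 and 3, and -0.48 to 0.65 in the shams. With quality weights, 7 of the 38 nuclear genes and 3 of the 28 fatty acid oxidation genes were called lower in BZ, as were 7.75% of all genes in that fit.

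**Figure D5:**
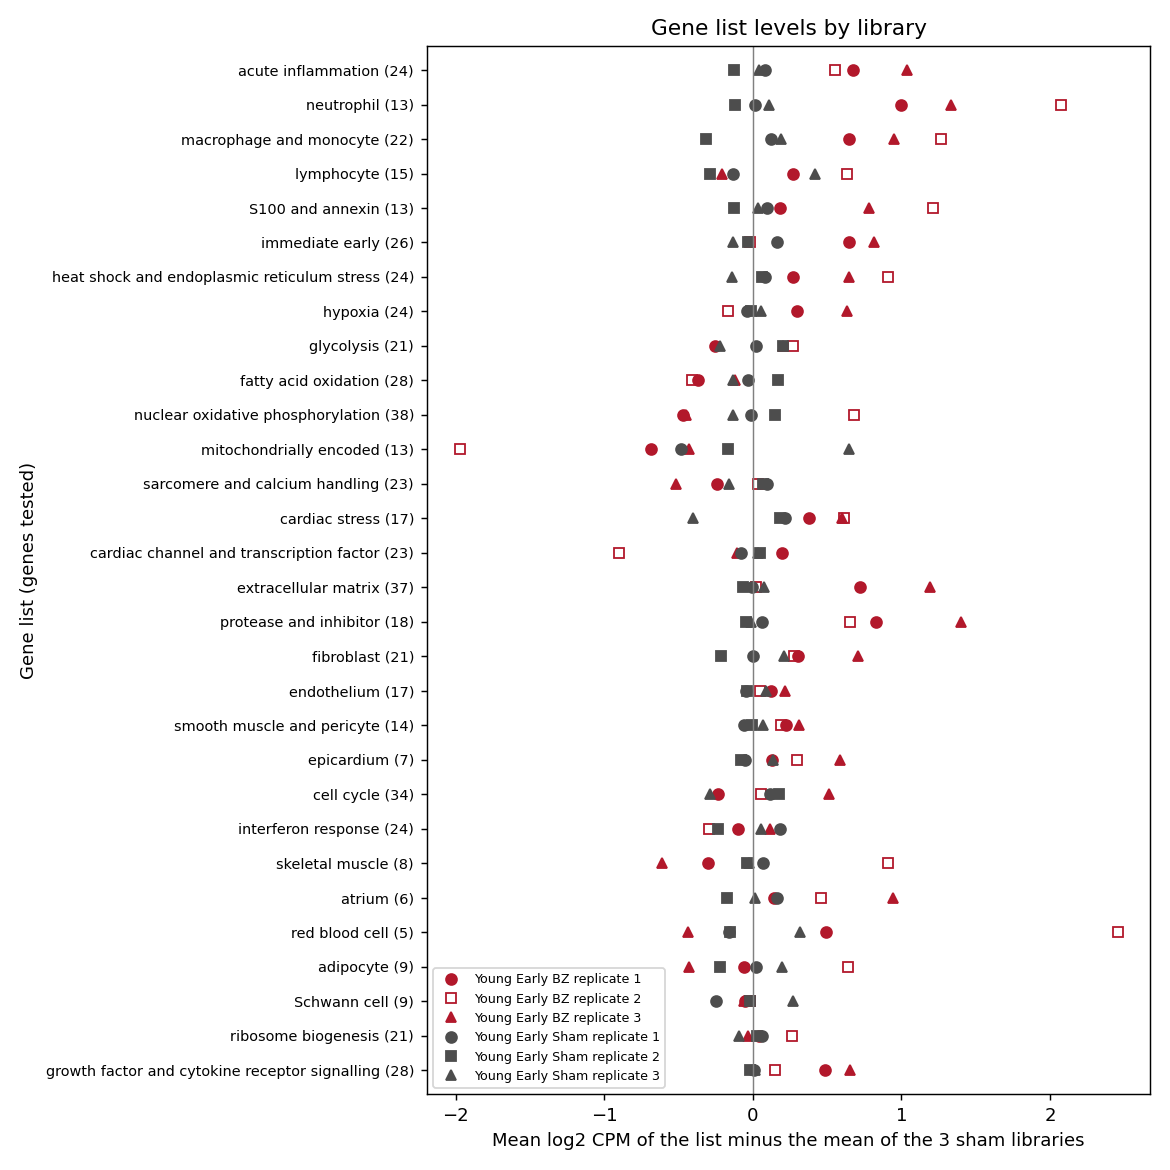
Mean log2 CPM of each gene list (y axis, number of genes tested in parentheses) in each library, minus the mean of the 3 sham libraries (x axis). All 3 BZ libraries lie right of all 3 shams for, among others, acute inflammation, neutrophil, macrophage and monocyte, and heat shock and endoplasmic reticulum stress genes, and BZ replicate 2 (open) lies apart from the other BZ libraries for red blood cell, mitochondrially encoded and nuclear oxidative phosphorylation genes.

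Cell cycle genes were of interest because the hearts were of an age at which muscle cells can still divide. They gave no call among 34 tested, as against 0.894% of all genes. Their median was 0.25, and 0.08 without BZ replicate 2. MCM6, a subunit of the replicative helicase, had 12.6, 11.9 and 19.7 CPM in BZ and 6.85, 8.14 and 5.50 CPM in sham, without overlap. Its log2 fold change was 1.11 ± 0.29 (adjusted p = 0.0578), and 1.24 without BZ replicate 2 (adjusted p = 0.0460), the list's 1 call in that fit. CDK1, the kinase of mitotic entry, had 4.18, 2.96 and 11.3 CPM in BZ and 5.23 to 8.25 CPM in sham. TOP2A, which untangles replicated DNA, had 12.5, 8.18 and 19.7 CPM in BZ and 9.35 to 12.7 CPM in sham. For both, BZ replicate 3 lay above the shams and replicate 2 below them.

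DZANK1 was the called fall that held without each library in turn. DZANK1, a little-studied protein with zinc ribbon and ankyrin repeat domains (chromosome 17, 26651161 to 26719192), had 35.3, 24.0 and 33.8 CPM in BZ and 70.0, 75.5 and 75.6 CPM in sham. It fell by 1.25 on the log2 scale (SE 0.21, adjusted p = 0.00351), and by 1.09 without BZ replicate 2. MYCBPAP had 5.03, 4.04 and 3.12 CPM in BZ and 8.79, 9.40 and 17.8 CPM in sham, and fell by 1.56 (SE 0.33, adjusted p = 0.0237), also called without BZ replicate 2 (adjusted p = 0.0435).

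The other falls named by size had no overlap between BZ and sham, and none of them was called without BZ replicate 2. FBF1 fell by 1.27, CPLANE1 by 1.00 and BBS4, a subunit of the BBSome, by 0.98. TFAP4, a transcription factor, fell by 1.20, from 4.31 to 5.36 CPM in sham to 2.37, 1.44 and 2.42 in BZ. NEIL1, a DNA repair glycosylase, fell by 1.17, FARP2, a guanine nucleotide exchange factor, by 1.14, and the splicing proteins PRPF40B and CENATAC by 1.13 and 1.11. RAB11B of recycling endosomes fell by 1.03, the nucleotide enzyme GMPR2 by 0.95, the transporter ABCC5 by 0.91 and the Mediator subunit MED24 by 0.90. Their adjusted p-values ran from 0.0287 to 0.0488 with all libraries, and without BZ replicate 2 from 0.0535 to 0.0725.

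The summed CPM of some marker lists of other cells stood high in BZ replicate 2, and single genes made up most of these sums. Summed red blood cell markers stood at 697, 2761 and 331 CPM in BZ and 292 to 428 CPM in sham, almost all of it HBB. Atrial markers stood at 231, 2536 and 589 CPM in BZ and 528 to 845 in sham, with 2486 CPM of the replicate 2 value from the atrial light chain gene MYL4. The atrial list's mean log2 CPM minus the sham mean was 0.14, 0.46 and 0.94 in BZ replicates 1, 2 and 3, so by that measure replicate 3 was the highest. Skeletal muscle markers stood at 76.5, 761 and 174 CPM in BZ and 123 to 213 in sham, mostly the slow troponin gene TNNT1, and the defining genes MYF5, MYF6, MYOD1 and PAX7 were listed at 0 in all 6. No gene of these 3 lists was called, nor any of 17 endothelial, 14 smooth muscle and pericyte, 7 epicardial, 9 adipocyte or 9 Schwann cell markers tested. The part of these cells in the results was not tested.

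The IZ of the same 3 pigs allows a paired comparison that shares the BZ libraries with the one above. With the animal as a block, 1469 of 14386 genes were called (10.2%), 544 higher in IZ (3.78%) and 925 lower (6.43%). Of the 37 named genes called in BZ against sham, those that differed between the zones included TNC, MT1X, PTX3, TNFRSF11B and PANX1, which were higher in IZ, and PLIN5 and MYCBPAP, which were lower. TNFRSF11B had 42.1, 35.7 and 31.2 CPM in IZ, 3.24 ± 0.78 above BZ on the log2 scale (adjusted p = 0.0244). PLIN5 had 4.02, 6.79 and 4.50 CPM in IZ, 1.61 lower than in BZ (log2 difference -1.61 ± 0.37, adjusted p = 0.0218). None of these was called without the pig of replicate 1 or the pig of replicate 2, where the adjusted p of TNFRSF11B was 0.0703 and 0.0731, and MT1X, PANX1 and PLIN5 were not called without the pig of replicate 3 either.

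CCL2 had 106, 146 and 82.8 CPM in IZ and S100A6 had 193, 119 and 125, and their differences from BZ of 1.04 ± 0.35 and 0.79 ± 0.53 did not pass the test (adjusted p = 0.0748 and 0.319). The energy and muscle lists did not all go the same way in this comparison of zones. Nuclear oxidative phosphorylation genes were lower in IZ for 36 of 38, and for 31 without the pig of replicate 2. Fatty acid oxidation genes were lower for 17 of 28, and for 7 without that pig, at list medians of -0.79 and -0.83. Sarcomere and calcium handling genes were lower for 14 of 23, for 9 without that pig and for 8 without the pig of replicate 1. Their medians in these fits were -1.07, -0.98 and -1.17. Over all genes, 925 of 14386 were lower with all pigs, 220 of 14608 without the pig of replicate 2 and 392 of 14574 without that of replicate 1. Of 21 glycolysis genes 4 were lower and 2 higher in IZ, and none of the 13 mitochondrially encoded genes was called, with a median of 0.24.

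In pigs infarcted at 14 days of age, the BZ response at 1 day was compared with that in the younger pigs by an interaction term, which shares the 6 libraries above. It called 29 genes (0.199%), 18 with a higher value in Old (0.124%) and 11 with a lower one (0.0757%), and among the named genes TFAP4 alone. BZ and sham shared a preparation batch within each age, but the Old Early libraries came from a different batch than the Young Early ones. Age and batch therefore cannot be told apart here. TFAP4 had 4.57, 4.70 and 3.86 CPM in Old Early BZ and 3.30, 1.82 and 3.21 CPM in Old Early Sham. BZ thus stood above sham in the older pigs and below it in the younger ones. TFAP4 was named for its fall in the younger pigs, so its naming and the interaction term share values. The difference of the responses, Old minus Young, was 1.85 ± 0.38 (adjusted p = 0.0316), and it was 1.65 without Young Early BZ replicate 2 (adjusted p = 0.0163). For CCL2, S100A6 and HAMP this difference was 1.26 ± 0.62, 0.30 ± 0.70 and 0.42 ± 1.05, with adjusted p-values of 0.281, 0.855 and 0.867, so that no difference between the ages was detectable at this spread. Without Young Early BZ replicate 2 the interaction called 2134 genes in place of 29.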

How the data were processed

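RNA was measured by sequencing of polyA libraries (a stranded TruSeq kit, paired reads) from 24 pigs, 12 infarcted and 12 sham-operated, as 36 libraries in 12 groups of 3. The submitters' processing notes name Trimmomatic 0.36, STAR, bcl2fastq 2.19.0.316 and Subread 1.5.1. The authors deposited 1 table of unnormalized featureCounts counts, whole numbers for each gene and library, per the file headers. The genome build, annotation release and strand setting of the counting are not given in the sources used here, so overlapping and near-identical genes are uncertain: ZPR1 and ENSSSCG00000015066, both called, had nearly the same CPM in every library. A table of pig gene names gave symbols for 14857 of 25880 identifiers.

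From the counts, genes were filtered with filterByExpr (minimum count 10, minimum total 15), scaled by TMM and fitted with edgeR 4.0.16 in R 4.3.3 (quasi-likelihood, robust) over all 36 libraries in their 12 groups, leaving 24 residual degrees of freedom. P-values were adjusted by Benjamini-Hochberg over all 14537 genes and called under 0.05, and rose and fell are used only of called genes. CPM are counts per 1000000 of the TMM-scaled library and are not corrected for gene length, so they are compared between libraries, not between genes. Errors are SE worked back from the log2 fold change and its quasi-likelihood F statistic unless named otherwise. They rest on the spread shared by all libraries in a fit, not on the 3 pigs of a group alone. With 3 libraries per group few counts limit the precision of low genes. IZ against BZ used the 24 IZ and BZ libraries and a block for each pig. Alternatives used DESeq2 1.42.0 size factors and its test, limma 3.58.1 voom with each pig as a random replicate block or with quality weights, and others given at the end. The scripts were tested on simulated data.

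Replicates were separate animals, numbered in accession order, so numbers do not pair BZ with sham. The members, the 30 gene lists (679 genes, 558 tested) and the panel of 50 genes (47 tested) were chosen with earlier results of these data known. Genes named are the 15 largest called rises and falls that had a symbol, averaged log2 CPM 1 or more and did not overlap between BZ and sham, up to 3 called members of each list averaging log2 CPM 0 or more, and the panel. Other list members are named as examples, chosen after their values were seen. Of 37 named called genes, 4 held without each of the 6 libraries in turn. No sequences are shown, since none came with the count table. Results for a few genes are not reported here.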

Additional observations from a re-analysis of the deposited data

Results flagged for a closer look

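TFAP4 was singled out because its border zone response at 1 day differed between pigs infarcted at 14 and at 2 days of age by a test of the difference itself. The difference, Old minus Young, was 1.85 on the log2 scale (SE 0.38, edgeR adjusted p = 0.0316). It was positive under every alternative run, from 1.63 to 1.99 over the 12 fits that left out 1 library each, and was called in 5 of those 12. The Young Early and Old Early libraries were prepared in different batches, so age and batch cannot be told apart in these values. TFAP4 stood at 1.44 to 2.42 CPM in Young Early BZ, 4.31 to 5.36 in Young Early Sham, 3.86 to 4.70 in Old Early BZ and 1.82 to 3.30 in Old Early Sham. It was the 1 of 75 named genes so found. TFAP4 was named for its fall in the Young Early libraries, which also enter the difference, so its naming and this test are not independent. With the 12 libraries of the 4 groups alone it was not called (edgeR adjusted p = 0.172). Groups of 3 libraries are too small for a test of single outlying libraries.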

How the results depend on the processing

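For BZ against sham, 130 genes were called (94 higher, 36 lower). The count was 39 with no count filter (35 and 4), 0 with the 6 libraries alone, 23 with RNA integrity as a covariate (22 and 1), 557 with the DESeq2 test (334 and 223), 22 in limma-voom with each pig as a random replicate block (11 and 11), 2153 with quality weights (1027 and 1126) and 82 at a minimum absolute log2 fold change of 1. It was 122 with DESeq2 size factors, 117 with the preparation batch as a term and 112 without mitochondrially encoded genes. Leaving out 1 library each gave 11 to 945, with 945 without BZ replicate 1 (689 and 256), 162 without BZ replicate 2, 235 without BZ replicate 3, 11 without Sham replicate 1 or 3 and 39 without Sham replicate 2. Of the 37 named called genes, 13 were called without BZ replicate 2, 36 without BZ replicate 1, 25 without BZ replicate 3, and 5, 14 and 4 without Sham replicates 1, 2 and 3. All 37 kept their sign wherever they were fitted. The lists' called counts were recomputed only without BZ replicate 2 and with quality weights. With weights, 12 of 37 matrix, 10 of 24 chaperone, 5 of 24 acute inflammation and 6 of 18 protease and inhibitor genes were called higher. Of these lists only the chaperones had a gene called lower. Fewer were called higher in other lists, such as 1 of 13 neutrophil, 3 of 22 macrophage and monocyte and 0 of 24 interferon response genes. Over all genes 7.06% were called higher with weights and 7.75% lower.

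IZ against BZ gave 1469 calls, 0 from the 6 libraries alone (2054 at an unadjusted p under 0.05 in edgeR), 1068 with no replicate block, and 280 to 1419 without 1 pig each (473 without replicate 1, 280 without replicate 2). The Old minus Young term gave 29 calls, 0 in edgeR from the 12 libraries alone (12.4% of genes at an unadjusted p under 0.05), 591 with the DESeq2 test, 19 with the replicate block, and 0 to 2134 without 1 library each. The 2134 came without Young Early BZ replicate 2 and 49 without its replicate 3, 11 without its replicate 1 and 14 without Old Early Sham replicate 1, and the count was 0 without Young Early Sham replicate 1 or 3, Old Early BZ replicate 1 or 2, or Old Early Sham replicate 2 or 3. The cause of these shifts was not tested.

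Among the named genes, signs turned only for panel genes that were not called. Most lay near 0, but XIRP2 stood at 1.27 in the fit reported. Without BZ replicate 2 the medians of the nuclear oxidative phosphorylation list (0.04 to -0.51) and the glycolysis list (0.02 to -0.28) also changed sign. MYOM2 (0.00203 in the fit reported) was -0.00618 with DESeq2 size factors, -0.00226 with no count filter, -0.0377 with the 6 libraries alone, -0.0158 without mitochondrially encoded genes, -0.00617 in DESeq2, -0.115 with the replicate block, -0.647 with weights and -0.418 to 0.405 with 1 library left out. With RNA integrity as a covariate TOP2A was -0.0792, ACTA1 0.00361 and CLU 0.00204. With the replicate block MYC was -0.129 and ACTA1 0.0761, and with weights KDR was 0.251 and CDK1 0.110. With 1 library left out, CLU ran from -1.19 to 0.352, CDK1 from -0.899 to 0.220, ACTA1 from -0.407 to 0.208, PPARGC1A from -0.301 to 0.0715, KDR from -0.352 to 0.249, TOP2A from -0.165 to 0.477, MYC from -0.175 to 0.767 and XIRP2 from -1.01 to 1.79. At 3 libraries per group and CPM under 1, as for IL6, CXCL8 and NRG1, the depth limits what can be detected.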

Other observations

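Among the called rises were genes that bring new proteins into the endoplasmic reticulum and out of it, and these were put together as a list of 45 genes after their values were seen, so the counts describe and test nothing. The list holds the oligosaccharyltransferase, the SEC61 channel and its associated proteins, signal peptidase, the TMED cargo receptors and the COPII coat. Of 41 tested, 7 rose and none fell, and the median log2 fold change was 0.63 against 0.13 over all genes. OSTC, a subunit of the oligosaccharyltransferase, had 12.9, 47.7 and 23.8 CPM in BZ and 8.79, 9.72 and 8.11 CPM in sham, and rose by 1.66 ± 0.28 (edgeR adjusted p = 0.00395). TFG, which organises COPII export sites, had 41.4, 46.7 and 50.6 CPM in BZ and 26.9, 30.3 and 21.8 CPM in sham, and rose by 0.81 ± 0.15 (adjusted p = 0.00943). SSR1, TMED10, SEC11A, STT3A and SEC23B also rose, by 1.19, 1.17, 0.84, 0.86 and 0.80. Without BZ replicate 2 the median was 0.38 and 6 were called, of which TFG, OSTC, SSR1, TMED10 and SEC23B were among the 7, and SEC24D was not.

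ENSSSCG00000029449, a gene with no symbol in the name table, had the smallest adjusted p of the comparison, 1.57e-05. It had 4.31, 13.7 and 13.2 CPM in BZ and 0.514, 0.368 and 0.825 CPM in sham, and rose by 4.21 ± 0.48. NSG1, a protein of endosomal trafficking, had 3.42, 4.18 and 2.60 CPM in BZ and 0.630 to 1.17 CPM in sham, rose by 1.86 ± 0.32 (adjusted p = 0.00506), and kept its call without each of the 6 libraries. SERPINB2, a serpin of myeloid and epithelial cells, had 166, 33.3 and 232 CPM in BZ and 25.8 to 48.0 in sham, and rose by 1.96, and by 2.43 without BZ replicate 2.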
